A study of Mus musculus with 2 samples.

Results

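Osr1-high and Osr1-low cells were compared within the posterior library of the embryonic day (E) 9.5 mouse second heart field. Each cell was classed by its number of Osr1 UMIs, the unique molecular identifiers that count single captured transcripts. The members were chosen by this measured count: cells with 8 or more Osr1 UMIs were Osr1-high (102 cells) and cells with exactly 1 were Osr1-low (108 cells). These 210 cells came from 418 posterior cells, 533 cells at E9.5 and 1500 cells in the whole series. The other posterior cells held 2 to 3 Osr1 UMIs (92 cells) or 4 to 7 (116 cells). The study profiled second heart field tissue of wild-type mice at E9.5 and E10.5 with the 10x Chromium system, 1 sample per stage. Barcode suffixes, per the labels, marked the dissected position (anterior, middle and posterior, with the outflow tract as a further position at E10.5). The labels name the cells as Osr1+ and do not say how they were chosen or how many embryos were used. No mutant, transgene or treatment is named in either class, and the lowest Osr1 count in any cell of the series was 1. A single UMI can come from free RNA, so the Osr1-low class may hold cells that do not express Osr1, and their share was not tested.

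The second heart field is a mesodermal progenitor population behind the heart tube that adds cells to both of its poles. Its posterior part lies next to the foregut, supplies the atria and the atrial septum, and receives Hedgehog ligand from the foregut endoderm. Osr1 encodes a zinc finger transcription factor of this posterior mesoderm, of the intermediate mesoderm that forms the kidney and of limb connective tissue. The Osr1 gene lies at chr12:9570116-9581500 on GRCm38 (mm10).

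Both classes came from 1 library, so the comparison has no replicate and no test was made between them. Values are CPM, the summed counts of a class without Osr1 scaled to a common total, and their ratio carries a 95% interval that covers counting error only. Since Osr1 counts chose the cells, all values of this contrast are descriptions. Osr1-high cells were somewhat deeper. Their median cell held 35602 UMIs (16650 to 80709), against 29579 (1514 to 105157) in Osr1-low cells. Osr1 itself stood at 331 CPM in Osr1-high cells and 33.7 CPM in Osr1-low cells, with 163 CPM at 4 to 7 UMIs and 86.4 CPM at 2 to 3 UMIs. The most Osr1 UMIs in a cell were 38. Single cells of the classes overlapped on the CPM scale, from 119 to 996 in Osr1-high cells and from 9.51 to 661 in Osr1-low cells, because 1 UMI weighs more in a shallow cell. No cell barcode was shared between the E9.5 libraries, 1 barcode was shared between 2 E10.5 libraries, and 0 were shared between stages. The plot of Osr1 against total UMIs shows these classes.

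**Figure D1:**
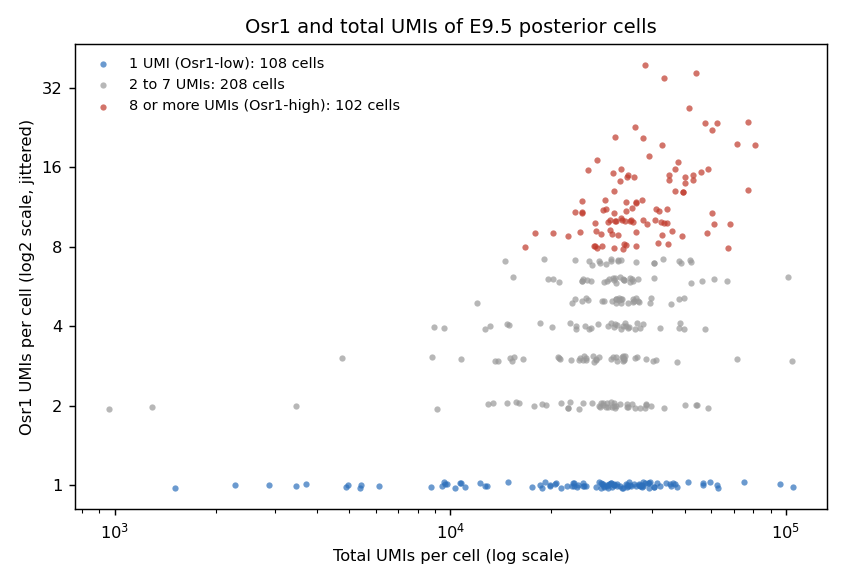
Each point is 1 of the 418 E9.5 posterior cells, with total UMIs on a log scale (x) and Osr1 UMIs on a log2 scale with a small jitter (y). The 102 Osr1-high cells (red) begin at 16650 total UMIs, whereas the 108 Osr1-low cells (blue) reach down to 1514.

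Markers of other cell types were found in cells of both classes. Foregut epithelial markers summed to 5 or more UMIs in 84.3% of Osr1-high and 69.4% of Osr1-low cells, and cardiomyocyte markers in 87.3% and 76.9%. Some list of this kind reached 5 UMIs in 99 of 102 Osr1-high cells (97.1%) and 96 of 108 Osr1-low cells (88.9%), so stricter cuts were used. Cardiomyocyte markers at 5000 CPM or more were found in 9 of 102 Osr1-high cells (8.82%, exact 95% interval 4.11 to 16.1%) and 9 of 108 Osr1-low cells (8.33%, 3.88 to 15.2%). Epcam and Cdh1, which mark foregut epithelium, summed to 5 or more UMIs in 10 Osr1-high and 9 Osr1-low cells. The endothelial genes Pecam1 and Cdh5 summed to 3 or more UMIs in 1 and 3 cells. These cuts were set after the values were seen, and together they hold 20 Osr1-high cells (19.6%) and 21 Osr1-low cells (19.4%). Summed over the 10 cardiomyocyte markers the level was 1812 CPM in Osr1-high and 5294 CPM in Osr1-low cells, and the 5 cells with most of these counts held 55.7% and 80.7% of them. The 8 endothelial markers summed to 52.8 and 203 CPM, and the 10 epithelial markers to 666 and 637 CPM. Of the leukocyte markers 5 of 7 were at 0 in both classes. The 8 second heart field markers other than Osr1 summed to 390 and 324 CPM. Values without the 41 cells past these cuts are given beside several of the results.

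Genes lower in Osr1-high cells outnumbered genes higher in them. With at least 100 counts over both classes, 6696 genes were measured and their median log2 fold was 0.01, computed as all log2 folds here with 10 CPM added. Osr1-high cells were at least 1.5-fold higher for 182 genes (2.72%) and at least 1.5-fold lower for 385 genes (5.75%). Without the cells past the marker cuts the counts were 137 of 5965 genes (2.3%) and 339 (5.68%).

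The Hedgehog list members Ptch1, Gli1 and Mycn stood higher in Osr1-high cells. Ptch1 (chr13:63508328-63573598), the Hedgehog receptor that is also transcribed in response to the pathway, had 624 counts in Osr1-high and 180 in Osr1-low cells. Its level was 56.2 CPM at 1 Osr1 UMI, 96.3 at 2 to 3, 124 at 4 to 7 and 155 at 8 or more, a ratio of 2.75 (2.33 to 3.26). The median cell had 137 CPM of Ptch1 in the Osr1-high class (interquartile range 71.4 to 211) and 23.4 CPM in the Osr1-low class (0 to 82.1), so the middle ranges of the classes overlapped. A UMI of Ptch1 was found in 93.1% of Osr1-high and 56.5% of Osr1-low cells. The share was 84.8% (71.1 to 93.7%) in posterior cells past the epithelial cut and 77.1% (59.9 to 89.6%) in those past the cardiomyocyte cut. These cells had medians of 32413 and 32928 UMIs and were deeper than Osr1-low cells. After thinning to 12500 UMIs per cell, Ptch1 was found in 77.45% of 102 Osr1-high cells and 32.95% of 88 Osr1-low cells. Shallower cells were left out. The thinned share was 51.16% of 43 cells past the epithelial cut and 31.25% of 32 cells past the cardiomyocyte cut. At equal depth the Osr1-low share thus lay below the Osr1-high share and that of the epithelial cut, and near that of the cardiomyocyte cut. Gli1, a transcriptional effector and target of the pathway, was at 20.1 and 10.6 CPM, a ratio of 1.89 (1.25 to 2.91). Mycn, a growth-promoting transcription factor placed on the Hedgehog list as a target, was at 211 and 100 CPM, a ratio of 2.10 (1.85 to 2.40). The transducer Smo had a ratio of 1.23 (1.04 to 1.47) and lay within the 1.5-fold limits. Gas1, a Hedgehog co-receptor, went the other way, with 49.3 CPM in Osr1-high and 153 CPM in Osr1-low cells. Of the 8 measured members of this list of 20, 4 were at least 1.5-fold higher and 1 lower. The 4 include Foxf1, which is also on the posterior field list. The median log2 fold of the list was 0.41, against 0.01 for all measured genes.

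Among 23 measured genes listed for the venous pole and the posterior field, 9 were at least 1.5-fold higher in Osr1-high cells and 4 lower, with a median log2 fold of 0.23. Foxf1, a forkhead gene of the mesoderm around the foregut, was at 276 CPM in Osr1-high and 124 CPM in Osr1-low cells, a ratio of 2.22 (1.98 to 2.5), with 177 and 241 CPM in the classes between. The median Osr1-high cell had 239 CPM of Foxf1 (interquartile range 68.3 to 427) and the median Osr1-low cell 16.4 CPM (0 to 217). At least 1 Foxf1 UMI was found in 80.4% of Osr1-high cells (71.4 to 87.6%) and 52.8% of Osr1-low cells (42.9 to 62.5%). In the 46 posterior cells past the epithelial cut the share was 23.9% (12.6 to 38.8%) at a median of 32413 UMIs. The shares of both classes lay above it. These 46 cells include 10 Osr1-high and 9 Osr1-low cells. Whether their Foxf1 came from free RNA, mixed cells or their own expression was not tested. Isl1, a LIM homeodomain gene that defines second heart field progenitors, was at 110 and 50.9 CPM, a ratio of 2.15 (1.79 to 2.59). The median cell had 62.4 CPM of Isl1 in the Osr1-high class and 0 in the Osr1-low class. A UMI of Isl1 was found in 69.6% of Osr1-high and 36.1% of Osr1-low cells, and in 78.3% of cells past the epithelial cut (63.6 to 89.1%), so neither share lay above that of the epithelial cells.

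Aldh1a2, the retinoic acid synthesising enzyme, had a ratio of 1.95 (1.69 to 2.25). Tbx5, a T-box factor needed for atrial septation, had a ratio of 1.72 (1.38 to 2.16). The cardiac zinc finger gene Gata5 had 1.71, the anterior Hox gene Hoxb1 1.54, and the epicardial and lung mesenchyme factor Tcf21 1.62. For these genes the intervals lay above 1. Between the 1.5-fold limits stood Pdgfra (1.33), Nr2f2 (1.21), Wnt2 (1.18), Meis1 (1.14), Gata6 (0.94), Hoxa3 (0.94), Nr2f1 (0.85), Gata4 (0.83), Meis2 (0.77) and Tbx20 (0.69). Lower in Osr1-high cells were the Wnt antagonist Sfrp5 (0.51), the bHLH gene Hand2 (0.31), the sinus venosus gene Tbx18 (0.25) and Hand1 (0.02). With the cells past the marker cuts left out, 6 of the 23 were higher and 4 lower, with a median of 0.12.

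Beside these lists, 70 genes were at least 1.5-fold higher in all cells, in depth-matched cells and in cells with 2 or more Foxf1 UMIs, with a UMI in at least 10% of Osr1-high cells, and 254 genes were lower in the same way. The 14 with the largest folds in each direction are described here. Sparcl1, a secreted matricellular glycoprotein, had the largest fold of the higher genes, with 59.2 CPM in Osr1-high and 8.12 CPM in Osr1-low cells, a ratio of 7.29 (4.85 to 11.4). Arl4a, a small GTPase of the ARF-like family, was at 102 and 22.2 CPM, a ratio of 4.58 (3.55 to 5.98). Both stood higher in each successive class, Sparcl1 with 23.6 and 39.4 CPM and Arl4a with 47.6 and 70.0 CPM at 2 to 3 and 4 to 7 UMIs. Tdrd12, a tudor domain gene known from germ cells, was at 34.2 and 6.87 CPM. The RGK-type GTPase gene Rem2 was at 21.1 and 5.31 CPM. Dpysl3, a cytoskeletal collapsin response mediator, was at 148 and 60.3 CPM, a ratio of 2.46 (2.09 to 2.91). Dock9, an exchange factor for Cdc42, was at 34.2 and 11.2 CPM.

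Secreted and membrane-bound signals made up another part of the higher genes. Wnt4 was at 35.7 CPM in Osr1-high and 9.37 CPM in Osr1-low cells, a ratio of 3.81 (2.56 to 5.85), and the 5 cells with most Wnt4 held 46.5% of its counts in the high class. Jag1, a Notch ligand, was at 24.5 and 5.94 CPM, a ratio of 4.13 (2.51 to 7.15). Bmp4 was at 55.5 and 23.1 CPM, a ratio of 2.40 (1.84 to 3.17). The chemokine Cxcl13 was at 69.4 and 25.3 CPM, and the WAP-domain gene Wfdc2, known from epithelia, at 90.7 and 35.6 CPM. Cck, which encodes the peptide cholecystokinin, had a ratio of 4.06, but 5 cells held 89.8% of its counts in Osr1-high and 98.1% in Osr1-low cells. Its ratio was 0.79 without the cells past the marker cuts.

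Nkx2-5, the homeobox gene of committed cardiac progenitors and cardiomyocytes, depended on the cells compared. It was at 112 CPM in Osr1-high and 52.8 CPM in Osr1-low cells, a ratio of 2.11 (1.77 to 2.54), and 5 cells held 81.7% of the Osr1-low counts. Without the cells past the marker cuts it was at 65.6 and 5.22 CPM, a ratio of 12.6 (7.20 to 24.0). A UMI of Nkx2-5 was found in 39.2% of Osr1-high cells (29.7 to 49.4%) and 15.7% of Osr1-low cells (9.45 to 24.0%), against 8.70% of cells past the epithelial cut (2.42 to 20.8%, median 32413 UMIs). The interval of the Osr1-low share overlaps that of the cells past the epithelial cut.

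Over the 4 classes of Osr1 UMIs, 9 of the 14 higher genes stood higher with each step and 8 of the 14 lower genes stood lower with each step. The choice of genes fixed the order of the end classes. Of all 182 genes at least 1.5-fold higher, 92 (50.5%) stood higher with each step, and of all 385 lower genes 192 (49.9%) stood lower with each step. The remaining 5 and 6 genes went both ways, among them Nkx2-5 with 52.8, 94.0, 60.5 and 112 CPM from the lowest to the highest class. The plot of CPM by Osr1 class shows 6 genes in each direction.

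**Figure D2:**
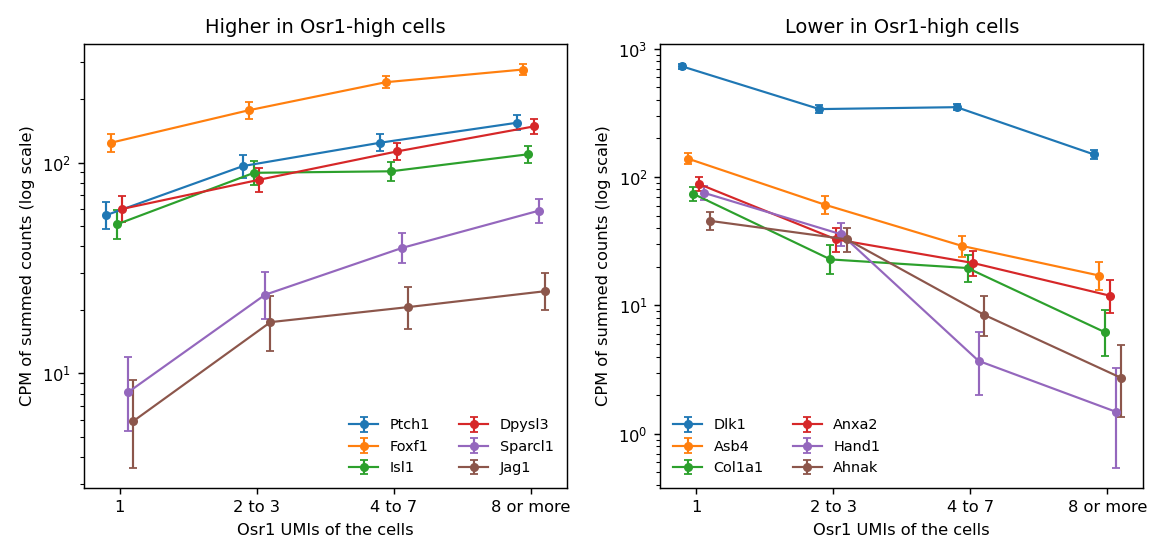
CPM of summed counts (log scale) for 12 genes in E9.5 posterior cells with 1, 2 to 3, 4 to 7, and 8 or more Osr1 UMIs; points are class values and bars their 95% counting intervals. Ptch1 goes from 56.2 to 155 CPM and Foxf1 from 124 to 276 CPM, while Dlk1 goes from 727 to 150 CPM with a plateau of 338 and 350 CPM in the middle classes.

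The genes lower in Osr1-high cells included matrix, imprinted and cytoskeletal genes. Dlk1 (chr12:109452823-109463336), a paternally expressed non-canonical Notch ligand of fetal mesenchyme, had 606 counts in Osr1-high and 2328 in Osr1-low cells, or 150 and 727 CPM. Its ratio was 0.21 (0.19 to 0.23), which makes it 4.84-fold lower (4.43 to 5.30). The median cell had 73.4 CPM of Dlk1 in the Osr1-high class (interquartile range 34.8 to 150) and 348 CPM in the Osr1-low class (84.2 to 1022). This difference was spread over cells, since the 5 cells with most Dlk1 held 24.4% and 23.6% of its counts. The neighbouring imprinted noncoding RNA Meg3 was at 449 and 1456 CPM, and the imprinted genes Plagl1 and Mest had ratios of 0.30 and 0.46. Of the 16 measured imprinted growth and timing genes, Dlk1 included, 6 were lower and 0 higher, with a median log2 fold of −0.27. The imprinted Cdk inhibitor gene Cdkn1c had a ratio of 0.95 (0.89 to 1.02).

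Asb4, an ankyrin repeat and SOCS box gene, was spread over cells in the same way, with 17.1 CPM in Osr1-high and 139 CPM in Osr1-low cells, 8.15-fold lower (6.31 to 10.7). Itm2a, a transmembrane protein gene of mesenchyme, was at 29.7 and 144 CPM. Several other lower genes rested on few cells. Hand1, a bHLH factor of the heart and lateral mesoderm, had 6 counts in Osr1-high and 241 in Osr1-low cells, a 50.6-fold difference (22.9 to 139), but 5 cells held 72.2% of the Osr1-low counts. A UMI of Hand1 was found in 27 of 108 Osr1-low cells (17.2 to 34.3%). The share was 5.88% (2.19 to 12.4%) in Osr1-high cells and 8.70% (2.42 to 20.8%) in cells past the epithelial cut (median 32413 UMIs). These intervals overlap, and the source of these UMIs was not tested. For the matrix genes Postn and Lum the 5 richest Osr1-low cells held 92.2% and 93.7% of the counts. For the eye and body wall regulator gene Mab21l2 they held 56.2%. Col1a1, the main chain of type I collagen, was at 6.19 and 74.0 CPM, 11.95-fold lower (7.90 to 18.9), with 60.8% of Osr1-low counts in 5 cells.

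Anxa2 and Ahnak, which encode membrane-linked scaffold proteins, were 7.43-fold and 16.7-fold lower in Osr1-high cells, and the adhesion molecule gene Alcam 7.91-fold lower. Cryab, a small heat shock protein of muscle, and the muscle enzyme gene Pgam2 were 6.22-fold and 7.73-fold lower, with 73.3% and 84.7% of Osr1-low counts in 5 cells. Ramp2, a co-receptor for adrenomedullin in endothelium, was 7.56-fold lower with 89.6% of counts in 5 cells. Without the cells past the marker cuts the ratios of these last genes moved toward 1, from 0.16 to 0.34 for Cryab, from 0.13 to 0.29 for Pgam2 and from 0.13 to 0.58 for Ramp2. Those of Dlk1 (0.18), Asb4 (0.11), Hand1 (0.02) and Col1a1 (0.08) stayed near their values in all cells.

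At the thresholds the steps were uneven. Cells with exactly 2 Osr1 UMIs (49 cells), just outside the Osr1-low class, had 5.09 CPM of Hand1 and 28.4 CPM of Col1a1, against 75.3 and 74.0 CPM at 1 UMI. For Ptch1 these cells had 81.4 CPM against 56.2. Just outside the Osr1-high class, the 21 cells with 7 UMIs had 115 CPM of Ptch1 and 259 CPM of Foxf1, and the 13 cells with 8 UMIs had 151 and 342 CPM.

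Ptch1, Isl1 and Dlk1 were among the genes whose difference passed a test in the other libraries (given below), so their upstream sequence is printed. The 250 bases before the start site were taken from RefSeq on GRCm38.p6 and are written in the direction of transcription, with matches to the forkhead core TGTTTAC in capitals. Ptch1 spans chr13:63565736-63565985 (minus strand), Isl1 chr13:116309689-116309938 (minus strand) and Dlk1 chr12:109452573-109452822 (plus strand). The Ptch1 window lies inside the gene span given above, before a RefSeq start downstream of the end of that span where transcription begins.
Ptch1: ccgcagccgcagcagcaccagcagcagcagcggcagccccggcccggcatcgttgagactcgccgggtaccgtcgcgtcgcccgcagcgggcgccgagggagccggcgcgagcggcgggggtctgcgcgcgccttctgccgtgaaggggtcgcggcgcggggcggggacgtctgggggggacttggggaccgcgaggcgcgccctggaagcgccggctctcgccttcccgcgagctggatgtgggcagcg
Isl1: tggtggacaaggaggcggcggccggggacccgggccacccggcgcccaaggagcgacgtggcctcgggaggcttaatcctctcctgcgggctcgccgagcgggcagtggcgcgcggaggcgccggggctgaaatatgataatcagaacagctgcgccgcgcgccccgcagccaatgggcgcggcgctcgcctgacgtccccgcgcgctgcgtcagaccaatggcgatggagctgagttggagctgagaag
Dlk1: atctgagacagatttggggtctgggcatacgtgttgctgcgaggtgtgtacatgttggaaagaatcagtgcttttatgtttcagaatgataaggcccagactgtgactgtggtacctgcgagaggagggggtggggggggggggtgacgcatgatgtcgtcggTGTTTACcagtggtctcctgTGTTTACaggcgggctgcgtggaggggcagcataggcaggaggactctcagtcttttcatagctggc
The Dlk1 window held 2 forkhead matches, which begin 87 and 67 bases before the start, and the Ptch1 and Isl1 windows held no match to any motif searched. Both strands were searched for 5 motifs. Of 32851 RefSeq windows of this length, TGTTTAC was found in 3.17%, the GATA core AGATAA in 9.99%, the CArG box in 1.47%, the T-box core AGGTGTGA in 1.12% and the GLI core GACCACCCA in 0.225%. Among the 28 named genes, 12 higher and 9 lower genes had a window. GATA matches were found for Cck, Rem2 and Itm2a and forkhead matches for Cck and Dlk1. No window of these genes held a GLI, T-box or CArG match. A match is a string of letters and not a measured site.

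The direction of muscle genes depended on the cells compared. In all cells, all 14 measured cardiac sarcomere genes were at least 1.5-fold lower in Osr1-high cells, with a median log2 fold of −1.28. Among them, the atrial light chain gene Myl7 was at 568 and 1931 CPM and the troponin gene Tnnt2 at 206 and 356 CPM. Without the cells past the marker cuts the median was −0.05, with 5 of 14 lower and 0 higher. Among cells with 2 or more Foxf1 UMIs the median was 0.67, with 10 of 14 higher and 0 lower. In those cells the 10 cardiomyocyte markers summed to 1161 CPM in Osr1-high and 673 CPM in Osr1-low cells, and 5 cells held 62.1% and 44.7% of the counts. Smooth muscle contractile genes were lower in each of these comparisons, with medians of −0.95, −1.38 and −0.77. In all cells 6 of their 7 measured genes were lower, among them Acta2 (312 and 612 CPM) and Tagln (38.2 and 148 CPM).

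Extracellular matrix genes stood lower as a group. Of 25 measured matrix genes 13 were lower and 3 higher, with a median of −0.58. Col1a2, the second chain of type I collagen, had a ratio of 0.19, and Sparc, a collagen-binding matrix protein, one of 0.29. With those marker-carrying cells left out, 15 were lower and 1 higher. Genes of kidney, limb and other mesoderm that expresses Osr1 were lower as well, with 5 of 9 measured lower, 1 higher and a median of −1.10. They included Prrx1 (0.16), a limb mesenchyme homeobox gene, Wt1 (0.21), a regulator of kidney and epicardium, Msx2 (0.24) and Twist1 (0.25). Mesothelial and proepicardial markers went along with this in part: Upk3b, which marks mesothelium, was at 3.22 and 37.8 CPM, but the summed markers were at 261 and 280 CPM.

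The remaining signalling lists went both ways. Of 13 measured Wnt pathway genes 2 were higher (Wnt4 and the agonist Rspo1, ratio 2.05) and 4 lower. Of 13 BMP and TGF-beta genes 1 was higher and 4 lower, of 8 retinoic acid genes 1 and 2, of 5 Notch genes 2 and 2, and of 4 FGF genes 0 and 1. Of 14 PDGF, semaphorin and guidance genes 2 were higher, led by Efnb2 (2.14), an ephrin ligand, and 3 lower, led by Nrp1 (0.34), a semaphorin and VEGF co-receptor. Medians of these lists ran from −0.33 (Notch) to 0.19 (retinoic acid). Lung, stomach and foregut mesenchyme had 3 of 7 measured genes higher, among them the stomach regulator Barx1 (1.62), and 1 lower. The 6 measured genes of the anterior and pharyngeal progenitor list had 2 higher and 3 lower, with a median of −0.19, and 3 and 3 with a median of −0.39 without the cells past the marker cuts. The 10 Hox genes had 2 higher and 0 lower, and 0 and 1 without those cells. Mesenchymal regulators and cadherins had 0 of 16 higher and 5 lower.

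Cell cycle lists had few genes past the 1.5-fold limits. S phase genes had a median log2 fold of 0.20, with 17 of 20 above 0 and 1 at least 1.5-fold higher. G2 and M phase genes had a median of −0.01 and none past 1.5-fold. G1 cyclins and Cdk inhibitors had a median of 0.43 over 8 measured genes, with 2 higher; Ccnd1 and Ccnd2, the D-type cyclins, each had a ratio of 1.47, just under the limit. Glycolysis and hypoxia genes had 0 of 15 higher and 2 lower, among them the glucose transporter Slc2a1 (0.42). All 12 mitochondrially encoded genes were below 1 and within 1.5-fold, with a median of −0.23. Immediate early and heat shock genes had a median of 0.01, with 0 of 8 higher and 2 lower. The plot of gene lists shows each measured member, with the FGF list (4 measured genes) left out.

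**Figure D3:**
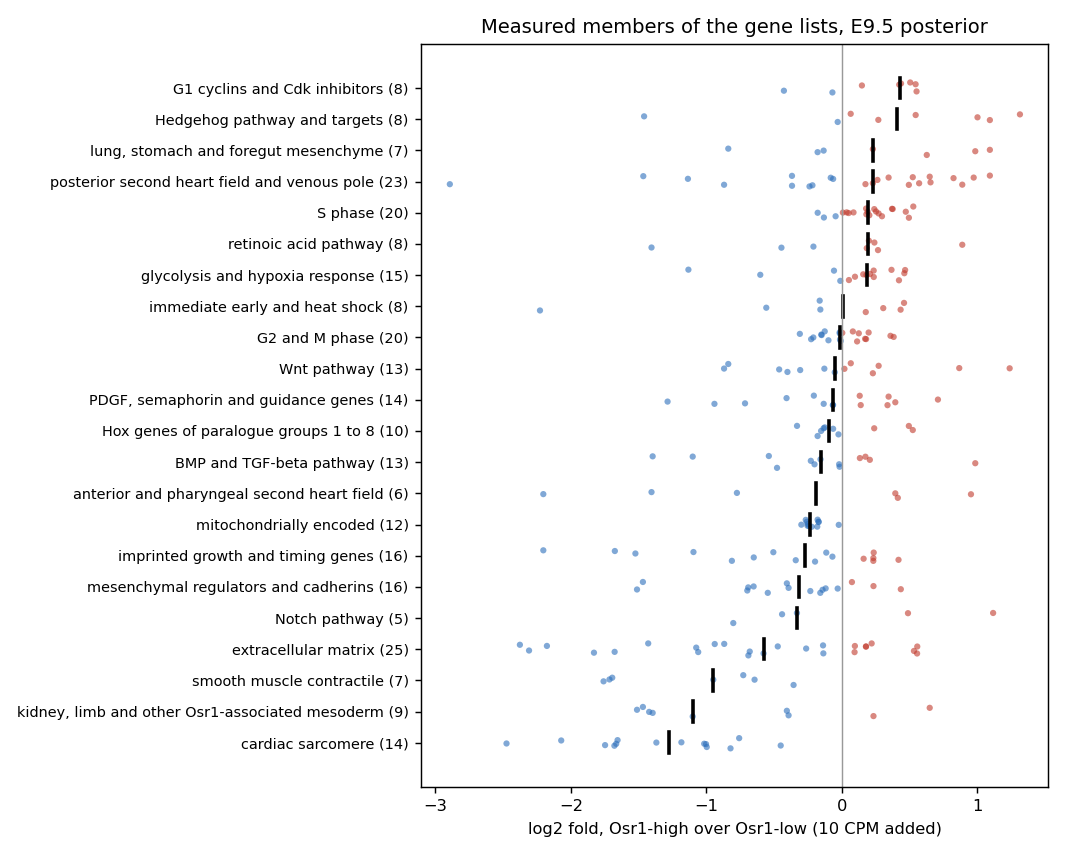
Each point is the log2 fold (10 CPM added) of 1 measured gene between Osr1-high and Osr1-low cells, by gene list, with the number measured in brackets; black bars are medians, red points lie above 0 and blue points below. The cardiac sarcomere list lies wholly below 0 (median −1.28), while the Hedgehog list has a median of 0.41. The FGF list is not drawn.

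Depth matching kept 77 cells of each class, paired within 10% of total UMIs, with medians of 33403 and 33474 UMIs. Of 5861 genes measured there, 134 were higher (2.29%) and 339 lower (5.78%). The rule for naming genes required the 28 named genes to keep their direction here. Ratios were 2.47 for Ptch1 (2.05 to 2.99), 2.06 for Foxf1 (1.81 to 2.35), 1.86 for Isl1 (1.52 to 2.29) and 0.22 for Dlk1 (0.20 to 0.24).

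Foxf1 was higher where Osr1 was higher, so the comparison was repeated where Foxf1 was held at 2 or more UMIs. This kept 78 of 102 Osr1-high cells (76.5%, 67.0 to 84.3%) and 42 of 108 Osr1-low cells (38.9%, 29.7 to 48.7%). Of 5078 genes measured, 128 were higher (2.52%) and 206 lower (4.06%). Foxf1 itself was then at a ratio of 1.09 (0.97 to 1.23). Isl1 had a ratio of 1.12 (0.92 to 1.37), against 2.15 in all cells, so its difference was within counting error among these cells. Ptch1 had 177 CPM in Osr1-high and 107 CPM in Osr1-low cells, a ratio of 1.66 (1.37 to 2.02). It was the only Hedgehog list member that was at least 1.5-fold higher there, and the list's median was 0.12.

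The venous pole and posterior field list had 6 of 23 genes higher and 5 lower among these Foxf1-positive cells, with a median of 0.04, against 9 and 4 in all cells. Of its genes, Tbx5 went from 1.72 in all cells to 2.76 (1.87 to 4.22) and Aldh1a2 from 1.95 to 1.63. The stomach gene Barx1 went from 1.62 to 0.78 (0.67 to 0.92). Sparcl1 (6.16), Arl4a (4.02) and Dpysl3 (2.08) were higher there too, and Dlk1 (0.20), Asb4 (0.12) and Meg3 (0.31) lower. Jag1 had a ratio of 9.89, on 79 and 3 counts (3.26 to 49.0). In the 33 and 33 cells matched on depth within the Foxf1-positive cells, 55 of 3275 genes were higher (1.68%) and 113 lower (3.45%). In the 24 Osr1-high and 66 Osr1-low cells with 0 or 1 Foxf1 UMIs, 178 of 3857 genes were higher (4.61%) and 239 lower (6.2%). The posterior list had 5 higher and 6 lower there. Isl1 then had a ratio of 3.78 and Cxcl13 one of 0.36, the reverse of its direction in all cells. Epithelial markers in those cells summed to 1879.9 CPM in Osr1-high and 675 CPM in Osr1-low cells, and their part in these values was not tested.

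**Figure D4:**
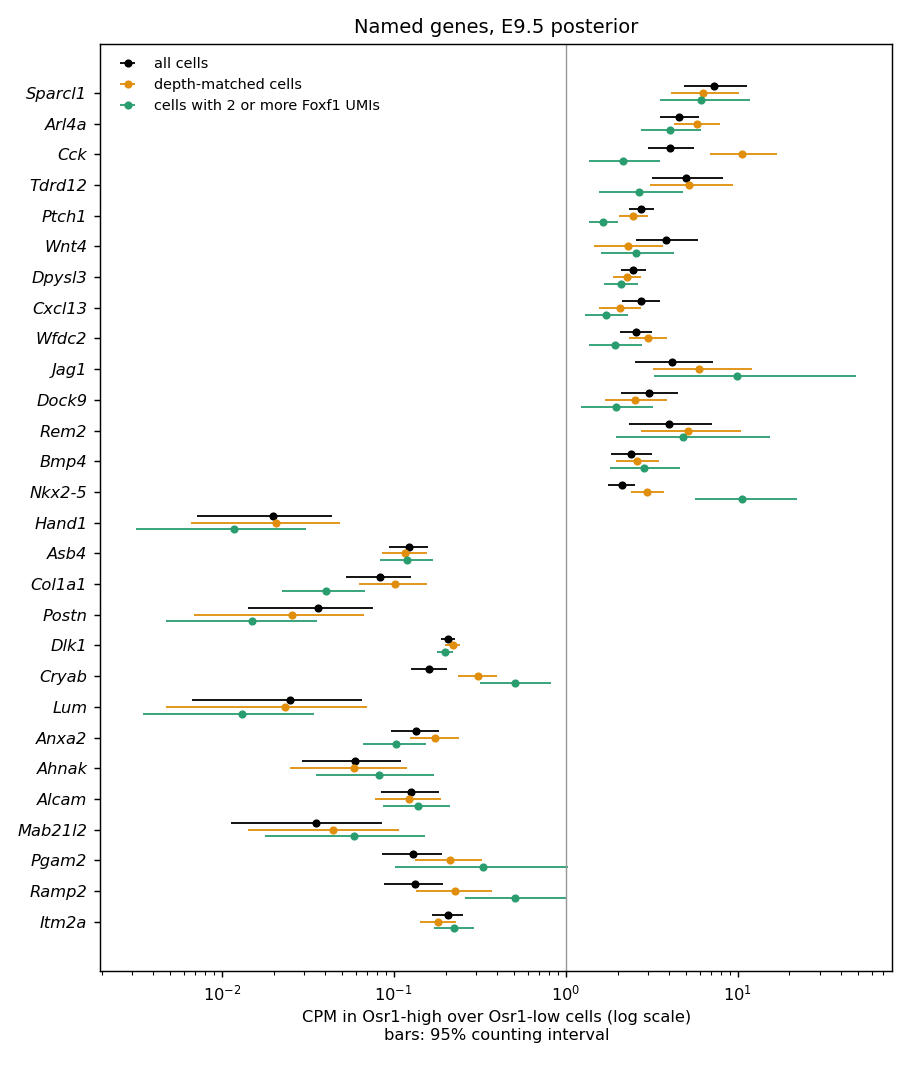
Ratio of CPM in Osr1-high over Osr1-low cells (log scale) for the 14 higher and 14 lower named genes, with 95% counting intervals, in all cells (black), depth-matched cells (orange) and cells with 2 or more Foxf1 UMIs (green). All higher genes lie above 1 and all lower genes below 1 in each set, which the rule for naming them required; Nkx2-5 moves from 2.11 to 10.6 in Foxf1-positive cells.

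The other libraries, which did not enter the choice of these cells or genes, allowed a test. Cells with 4 or more Osr1 UMIs were set against cells with 1 in the E9.5 middle (19 and 21 cells), E10.5 middle (19 and 218 cells) and E10.5 posterior libraries (62 and 273 cells). The 3 libraries came from 2 stage samples, and nothing in the labels says that positions of a stage are separate embryos. The p-values do not measure spread between embryos. The cells with more Osr1 were deeper in each library, with medians of 27198 against 20959, 6541 against 5275 and 6101 against 5344 UMIs. The edgeR quasi-likelihood test with library as a block called 9 of 5882 genes higher (0.153%) and 5 lower (0.085%). Log2 folds here are fitted values over 6 sums, with an SE computed from the fold and its F statistic. The fit left 2 residual degrees of freedom, against 22.2 prior degrees of freedom pooled over genes. The p-values thus rest mostly on variation pooled over genes, and less on a gene's own spread between these libraries.

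Ptch1 rose with Osr1 by 0.92 ± 0.19 (SE, edgeR adjusted p = 0.0323). Its ratio was 1.44 (0.91 to 2.33) in the E9.5 middle, 1.84 (0.92 to 3.39) in the E10.5 middle and 2.13 (1.62 to 2.79) in the E10.5 posterior library, so 1 library of 3 had an interval above 1. Isl1 rose by 1.07 ± 0.22 (edgeR adjusted p = 0.0323), with ratios of 1.76 and 2.99 in the E9.5 middle and E10.5 posterior libraries and 0.83 (0.39 to 1.59) in the E10.5 middle library. Without the E10.5 posterior library the edgeR adjusted p was 0.915 for Ptch1 and 0.947 for Isl1. With 3 or more UMIs as the upper class it was 0.126 for Ptch1 and 0.0674 for Isl1. The Hedgehog list as a whole did not rise in these libraries. Of its 8 genes tested, 4 had a fitted log2 fold above 0, with a median of −0.04, and only Ptch1 was called. Foxf1 was higher in each library, with ratios of 1.77 (1.16 to 2.75), 1.45 (1.09 to 1.90) and 1.40 (1.13 to 1.72). Its fitted log2 fold was 0.58 ± 0.13 (edgeR adjusted p = 0.05002), just above the threshold, so it was not called.

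Dlk1 fell by 1.45 ± 0.18 on the log2 scale (edgeR adjusted p = 0.000166), and it was the lowest adjusted p of the fit. It had 168 and 486 CPM in the E9.5 middle library, a ratio of 0.35 (0.27 to 0.44). In the E10.5 posterior library it had 84.6 and 186 CPM, a ratio of 0.45 (0.31 to 0.64). In the E10.5 middle library 0 counts in the upper class stood against 72 in the lower class, where the interval of the ratio ends at 0.43. The call held without each library in turn, with adjusted p from 7.37e-14 to 0.00688, and at 3 or more UMIs. It was lost in DESeq2, and without the library block in edgeR, with adjusted p of 0.9997 and 0.99975. Asb4 had a fold of −1.29 ± 0.29 and the same edgeR adjusted p of 0.05002 as Foxf1, with ratios of 0.32 and 0.55 in the E9.5 middle and E10.5 posterior libraries and 0 against 37 counts in the E10.5 middle library.

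Wfdc2 rose by 1.09 ± 0.24 (edgeR adjusted p = 0.0492) and was the only other named gene called. Its ratios were 1.64, 4.33 and 1.29, and without the E10.5 middle library the adjusted p was 0.602. The epithelial genes Foxa2 (1.75 ± 0.35), a forkhead factor of endoderm, and Krt18 (0.86 ± 0.19), a keratin, rose as well, with edgeR adjusted p of 0.0247 and 0.0482. Without the E9.5 middle library the adjusted p was 0.838 for Foxa2 and 0.0626 for Krt18, and without the E10.5 posterior library it was 0.185 for Foxa2. With 3 or more UMIs as the upper class it was 0.0727 and 0.774. The 10 epithelial markers summed to 1379 against 697 CPM in the E9.5 middle library, 800 against 356 CPM in the E10.5 middle library and 604 against 537 CPM in the E10.5 posterior library. In the E9.5 posterior library the same sums were 666 and 637 CPM. The part of epithelial RNA in the calls was not tested.

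Haemoglobin genes fell: Hbb-y by 0.87, Hba-x by 1.17, Hbb-bh1 by 1.23 and Hba-a1 by 1.32 on the log2 scale, with edgeR adjusted p from 0.00114 to 0.00406. Without the E10.5 middle library it was 0.0740 for Hba-x and 0.267 for Hbb-bh1, and 0.00388 for Hbb-y and 0.0172 for Hba-a1. The 9 erythroid markers summed to 1387 against 4835 CPM in the E10.5 middle library, 1811 against 2609 CPM in the E10.5 posterior library and 22.2 against 52.2 CPM in the E9.5 middle library. In E9.5 posterior cells their level was low, at 69.4 CPM in Osr1-high and 82.2 CPM in Osr1-low cells.

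The other called genes were Ifitm1 (0.97 ± 0.16), an interferon-induced membrane protein gene, the mitotic genes Cenpf (0.60 ± 0.11) and Ube2c (0.58 ± 0.09) and the endoplasmic reticulum gene Arl6ip1 (0.45 ± 0.09), with edgeR adjusted p of 0.00362, 0.00782, 0.00225 and 0.0323. Without the E10.5 posterior library the adjusted p was 0.885, 0.415, 0.303 and 0.769. Without the E9.5 middle library it was 0.303 for Arl6ip1, and with 3 or more UMIs as the upper class 0.0619 for Cenpf and 0.177 for Arl6ip1. Ifitm1 was also higher in E9.5 posterior Osr1-high cells, at 234 and 139 CPM. Cenpf and Ube2c were not, with ratios of 0.89 (0.80 to 1.00) and 0.99 (0.92 to 1.06). All 20 G2 and M phase genes had a fitted fold above 0 in the other libraries, with a median of 0.34 and 2 called, against a median of 0.004 for all genes tested. DESeq2 called Ube2c higher and no gene lower.

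Of the 14 higher named genes, 11, 9 and 8 had a ratio above 1 in the E9.5 middle, E10.5 middle and E10.5 posterior libraries. The interval lay above 1 for 3, 3 and 2 of them and below 1 for 0, 1 and 1. Of the 14 lower named genes, 8, 12 and 11 had a ratio below 1. For these the interval lay below 1 for 3, 3 and 2 and above 1 for 0 in each library. In the E9.5 middle library Postn, Lum and Mab21l2 had 0 counts in both classes and so no ratio, as had Cck among the higher genes. The median fitted log2 fold of all genes tested was 0.004, so nearly equal numbers of genes lay above and below 0. That median comes from the fit over the libraries together. The share of all genes with an interval past 1 in each library is not given here, so the interval counts have no baseline. Sparcl1, with 7.29 in E9.5 posterior cells, had a fitted log2 fold of 0.18 ± 0.22 (edgeR adjusted p = 0.980). Its ratio was 1.40 (0.73 to 2.79) in the E9.5 middle, 1.61 (1.05 to 2.39) in the E10.5 middle and 0.74 in the E10.5 posterior library. Cxcl13 had a fitted fold of −0.95 ± 0.32 (edgeR adjusted p = 0.474). Tdrd12, Jag1, Rem2, Nkx2-5, Hand1, Postn and Lum were among the named genes too low to be tested there.

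**Figure D5:**
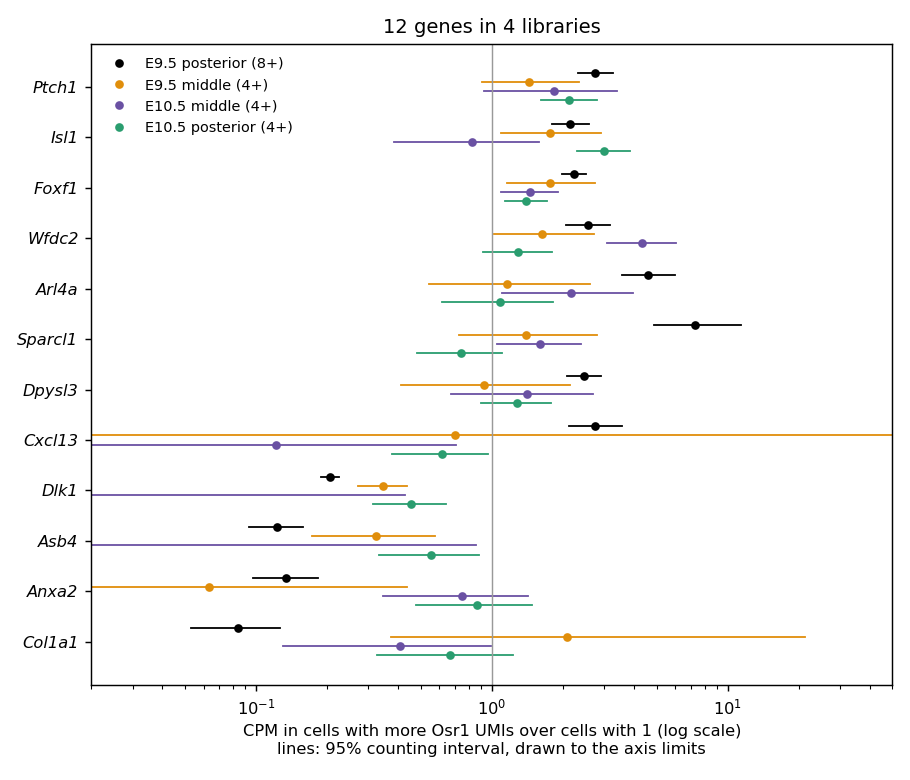
CPM ratio (log scale) of 12 genes in cells with more Osr1 UMIs over cells with 1, in 4 libraries: 8 or more UMIs in E9.5 posterior and 4 or more in the other 3. Lines are 95% counting intervals, drawn to the axis limits where they run beyond, and a line with no point is a class with 0 counts (Dlk1 and Asb4 in E10.5 middle). Dlk1 lies below 1 in each library and Foxf1 above 1 in each. The Cxcl13 point lies above 1 in E9.5 posterior cells alone, but its E9.5 middle value rests on 1 count in each class.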

How the data were processed

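Single-cell RNA of dissected mouse second heart field was measured at E9.5 and E10.5, 1 sample per stage. The authors deposited UMI counts per gene and cell, not normalized, as 1 matrix per stage. Alignment to mm10 is given in the labels, and Cell Ranger 3.0 and Seurat are named in the submitters' processing notes. Which annotation and cell filters were used, and how Osr1+ cells were chosen, is not given in the sources used here. For depth, the E9.5 posterior library held 13650408 UMIs, and the other libraries used held 1601463 (E9.5 middle), 2041441 (E10.5 middle) and 3449001 (E10.5 posterior).

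From these counts, CPM of summed counts without Osr1 were computed per class, with 95% intervals from exact binomial limits on how a gene's counts divide between the classes, for ratios, and on the number of cells, for shares. They cover counting error only. Genes with at least 100 counts over both classes were measured. Scrublet (scanpy 1.11.5) marked 5 of the 418 posterior cells as doublets (0 Osr1-high, 1 Osr1-low), which were kept. Named genes were the 14 largest and 14 smallest log2 folds (10 CPM added) among genes with a UMI in at least 10% of cells of the higher class and at least 1.5-fold in all, depth-matched and Foxf1-positive cells (2 or more UMIs); list members are named besides. The other libraries were fitted on counts summed by library and class with edgeR 4.0.16 (TMM, filterByExpr, quasi-likelihood test, Benjamini-Hochberg adjusted p under 0.05), and DESeq2 1.42.0 was an alternative. Tested on simulated data for that comparison (5882 genes), the edgeR fit called 78 of 100 genes changed by 1 and 98 of 100 changed by 2 on the log2 scale. There were 7 false calls among 5682. Changes were set only in genes with at least 100 counts, and all simulated sums shared 1 mean profile and the fitted dispersion. The simulation therefore cannot show how many calls are missed or false where libraries differ, as the real ones do. The library term pairs the 2 sums of each library. Symbols were matched to GENCODE vM21 for 98.9% of genes. The members and gene lists were chosen with earlier results of these data known. Some list members are counted with their lists but not reported here by name.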

Additional observations from a re-analysis of the deposited data

Results flagged for a closer look

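Cxcl13 went in opposite directions between libraries. Within E9.5 posterior cells its direction was also reversed at 0 or 1 Foxf1 UMIs. In the E9.5 middle library it had 1 count in each class, too few to give a direction. Its CPM ratio of cells with more Osr1 over cells with 1 UMI was 2.74 in E9.5 posterior cells, 0.616 in E10.5 posterior cells (0.38 to 0.96, 23 and 140 counts) and 0.122 in E10.5 middle cells (0.003 to 0.70, 1 and 67 counts). The difference between these libraries was not tested, since each library was measured once, and the upper class begins at 8 UMIs in the first and 4 UMIs in the others.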

How the results depend on the processing

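Each named gene's fold and each list's median in E9.5 posterior cells was recomputed with other cells, depths, scalings and Osr1 classes. For named genes 287 of 391 recomputed values lay within the 95% counting interval of the ratio in all cells and 3 changed sign: Cck (−0.15 without the cells past the marker cuts), Cxcl13 (−0.56 at 0 or 1 Foxf1 UMIs) and Dlk1 (0.52 without all cells carrying 5 or more UMIs of other types' markers). This last setting left 3 Osr1-high and 12 Osr1-low cells. There 25 of the 28 named genes had under 20 counts and gave no value. The rule for naming genes fixed their direction in depth-matched and in Foxf1-positive cells, so values in those settings could not change sign. For lists 271 of 345 medians moved by less than 0.2. Among lists whose median in all cells was past 1.5-fold, 2 values changed sign, both the cardiac sarcomere median (0.67 at 2 or more Foxf1 UMIs, 0.64 with depth matching besides). The 182 higher and 385 lower of 6696 measured genes became 346 and 739 at a minimum of 50 counts and 84 and 173 at 200 counts. The minimum also changes how many genes are measured. At 2-fold the counts were 40 and 178. They became 91 and 120 of 3396 measured genes after thinning to 12500 UMIs per cell. In depth-matched Foxf1-positive cells they were 55 and 113 of 3275. Without all cells carrying other types' markers they were 4 and 17 of 397. Since fewer genes were measured in these settings, the smaller counts alone do not mean a smaller share. The lower count was 206 at 2 or more Foxf1 UMIs and 239 at 0 or 1, where fewer genes were measured. The subsets by 0 or 1 Foxf1 UMIs and by marker cuts were added after seeing the data.

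In the other libraries the 9 higher and 5 lower calls of edgeR became 5 and 10 at 3 or more UMIs, 19 and 24 with no filter, 1 and 0 in DESeq2, and 14 higher with DESeq2 size factors in edgeR. Without the library block 0 and 0 were called. In the fit with it, 375 of the 5882 genes tested had an unadjusted edgeR p under 0.05. That threshold is looser than the adjusted p used for the calls. Leaving out 1 library gave 7 to 28 higher and 8 to 13 lower, with most calls without the E10.5 middle library. The causes were not tested. Depth limits the E10.5 libraries, where the middle library had a median of 5263 UMIs per cell, and 14 of the 28 named genes could be tested.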
